A study of Mus musculus with 6 samples.

Results

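The 7 genes described here, Magel2, Ndn, Mkrn3, Peg12, Snrpn, Snurf and Ube3a, belong to the imprinted region of mouse chromosome 7 that corresponds to the human Prader-Willi and Angelman syndrome region. They were chosen by gene symbol from the 23337 rows of the deposited counts, with the difference between the genotypes in these same libraries already known, that of Magel2 in particular. The member values between genotypes are therefore a description and carry no test. Of the 7 rows, 5 passed the filter on low counts, out of 13925 genes that passed it in all; Snrpn and Snurf did not.

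The libraries were made from nuclear RNA of mouse neural precursors, isolated from the dorsal forebrain of E13.5 embryos and cultured to passage 6 to 7 in medium with EGF and basic FGF at 20 ng/ml each. The WT group was lines 3, 8 and 19, with the genotype Fmr1 WT, and the KO group was lines 3, 13 and 16, with the genotype Fmr1 KO. Fmr1 encodes FMRP, an RNA-binding protein, and the study asked how nuclear RNA differs when the gene is disrupted. The series' design text calls the 3 lines of a genotype independent; the sources used here do not give the knockout allele, the strain or the number of embryos behind a line. Cultured precursors with growth factors are the only cells sampled, so the values do not extend to neurons, where several of these genes are best known.

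In this region most genes are read from one parental copy only. Magel2, Ndn, Mkrn3, Peg12 and the shared Snurf-Snrpn transcript are expressed from the paternal chromosome under the control of an imprinting centre at the start of Snurf-Snrpn. Ube3a is silenced on the paternal chromosome in neurons, where a long antisense transcript from the Snurf-Snrpn side runs across it, and is expressed from both copies in most other cells. The deposited counts do not separate the parental copies.

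Total counts ran from 18702738 to 26789522 per library. Levels are in CPM, counts relative to the library size after TMM scaling; a single count equalled 0.0366 to 0.0542 CPM and 3 counts 0.11 to 0.163 CPM. All 12 neural precursor markers listed were measured above the filter, with a summed level of 6530 to 7170 CPM in WT and 4920 to 6230 CPM in the libraries labelled KO. Fmr1 itself stood at 223, 270 and 274 CPM in WT lines 3, 8 and 19 and at 371, 188 and 153 CPM in the lines labelled KO 3, 13 and 16. The library labelled KO line 3 thus had the highest Fmr1 level of all 6. Because the knockout allele is not given, this RNA level does not tell whether the label is right. Without it the Fmr1 log2 fold change was -0.58 (SE 0.12, edgeR adjusted p = 0.00152), against -0.10 (SE 0.29, edgeR adjusted p = 0.795) over all 6. Fold changes of members whose lines differed and the counts of called genes around them are therefore also given without that library. That library also held 383749 counts of Xist, against 79 and 39 in the libraries labelled KO lines 13 and 16, while WT lines 3, 8 and 19 held 422810, 363810 and 1508. Without KO line 3, all libraries labelled KO were low in Xist, so label and Xist state are partly confounded in those fits. Over all genes, edgeR called 42.3% in the comparison of libraries labelled KO with WT, 21.8% higher and 20.4% lower, and the ranges of the groups did not overlap for 54.3%. With KO line 3 left out, it called 25.8% higher and 27.8% lower of the 14182 genes then tested, the shares to set beside counts made without that library.

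Magel2 encodes a MAGE-family protein that works with the ubiquitin ligase TRIM27 and the deubiquitinase USP7 in the sorting of endosomal cargo. The gene (ENSMUSG00000056972.6) is a single exon of 4631 bp at chr7:62377010-62381640 on the plus strand of GRCm38, and no other annotated exon overlaps it. Peg12, a member of the FRAT family of GSK3-binding proteins, is likewise a single exon (ENSMUSG00000070526.2, chr7:62461871-62464510, minus strand). Among the 5 members above the count filter, these were the ones whose groups did not overlap. The 250 bases before their RefSeq starts are shown with those of Ube3a, the member at the other end of the region, because the 3 windows differ in base composition and in the motifs searched. The windows lie at chr7:62376729-62376978 on the plus strand for Magel2, at chr7:62464511-62464760 on the minus strand for Peg12 and at chr7:59228500-59228749 on the plus strand for Ube3a (RefSeq, GRCm38.p6). They are written in the direction of transcription, and capitals mark matches to a motif on either strand.
Magel2 upstream: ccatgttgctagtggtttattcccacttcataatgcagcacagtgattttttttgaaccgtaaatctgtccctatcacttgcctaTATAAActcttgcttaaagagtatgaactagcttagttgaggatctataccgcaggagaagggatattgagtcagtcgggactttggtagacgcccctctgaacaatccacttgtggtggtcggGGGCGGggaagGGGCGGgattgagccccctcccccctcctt
Peg12 upstream: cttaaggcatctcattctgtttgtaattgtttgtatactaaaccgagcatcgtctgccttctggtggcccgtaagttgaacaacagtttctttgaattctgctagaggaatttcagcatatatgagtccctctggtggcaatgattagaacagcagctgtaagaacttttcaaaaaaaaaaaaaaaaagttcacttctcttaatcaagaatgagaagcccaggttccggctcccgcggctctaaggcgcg
Ube3a upstream: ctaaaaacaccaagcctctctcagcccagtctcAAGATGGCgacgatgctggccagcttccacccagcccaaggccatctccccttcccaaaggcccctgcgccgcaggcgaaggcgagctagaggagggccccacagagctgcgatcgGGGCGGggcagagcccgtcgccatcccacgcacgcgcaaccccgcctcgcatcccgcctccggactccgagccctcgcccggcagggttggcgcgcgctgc

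The Magel2 window held 2 copies of GGGCGG, the core letters bound by SP1, and 1 copy of TATAAA, the TATA box. In the Ube3a window there was 1 match to GCCATNTT, the core of the YY1 motif, and 1 copy of GGGCGG. No match to any of the 5 motifs was found in the Peg12 window. Among 32817 upstream windows of the same length, 32.7% held GGGCGG, 12.4% TATAAA, 3.9% GCCATNTT, 6.42% TGCGCA (core letters of the NRF1 motif) and 6.02% CACGTG (an E-box), and none of these motifs contains another. A GCCATNTT match also stood upstream of Mkrn3, and a TGCGCA copy upstream of Ndn in a window that lies inside the longer GENCODE exon of Ndn. Counts of CpG separated the members: 24 in the Ube3a window with a GC content of 70%, against 10 for Mkrn3, 8 for Peg12, 7 for Magel2, 5 for Ndn and 3 for the window that Snurf and Snrpn share, with a median of 6 over all windows. The matches are letters only, and no data on binding or methylation were used here.

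Magel2 was near the detection limit in WT and clearly present in every library labelled KO. It had 6, 4 and 5 counts in WT lines 3, 8 and 19 and 316, 323 and 314 counts in the libraries labelled KO lines 3, 13 and 16. On the CPM scale this was 0.219, 0.203 and 0.271 against 16.89, 13.66 and 13.48, or 0.231 ± 0.0357 (SD, n = 3) against 14.7 ± 1.92 (SD, n = 3). The groups lay far apart, and the library labelled KO line 3 stood with the other libraries labelled KO. The ratio of means was 63.6, and the log2 fold change was 5.96 with a standard error (SE) of 0.23. Since all WT libraries together held 15 Magel2 counts, the denominator carries most of the counting error. In nuclear RNA from a culture, a change in the number of cells that express a gene and a change in RNA per cell cannot be told apart.

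Peg12 was measured at 36.9, 41.0 and 36.6 CPM in WT lines 3, 8 and 19. The libraries labelled KO lines 3, 13 and 16 had 71.2, 66.4 and 80.9 CPM. Every library labelled KO was above every WT library, and the spread within each group was small beside the gap. Means were 38.2 ± 2.45 and 72.8 ± 7.36 CPM (SD, n = 3 each), a ratio of 1.91 and a log2 fold change of 0.93 (SE 0.12).

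Ndn encodes necdin, a MAGE-family growth suppressor that binds E2F1 and p53 (ENSMUSG00000033585.5, chr7:62346569-62350262, plus strand, 1 exon). Its level was 18.4, 23.7 and 21.0 CPM in WT lines 3, 8 and 19, and 15.7, 31.1 and 46.6 CPM in the libraries labelled KO lines 3, 13 and 16. The library labelled KO line 3 was the lowest of all 6 and the libraries labelled KO lines 13 and 16 were the highest, so the groups overlapped. Means were 21.0 ± 2.64 and 31.1 ± 15.5 CPM (SD, n = 3 each), and the log2 fold change was 0.57 (SE 0.32). Without KO line 3 it was 0.89 (SE 0.17), and without KO line 16 it was 0.17 (SE 0.27).

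Mkrn3 encodes a makorin RING finger protein, a ubiquitin ligase whose loss in people leads to early puberty (ENSMUSG00000070527.3, chr7:62417593-62420139, minus strand, 1 exon). WT lines 3, 8 and 19 had 10.5, 11.6 and 10.5 CPM, and the libraries labelled KO lines 3, 13 and 16 had 16.6, 8.92 and 11.9 CPM. The groups overlapped, with the libraries labelled KO lines 3 and 13 at the ends of the range. The means of 10.9 ± 0.592 and 12.5 ± 3.85 CPM (SD, n = 3 each) gave a log2 fold change of 0.19 (SE 0.21), which was -0.06 (SE 0.16) without KO line 3.

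Ube3a encodes E6-AP, the HECT-type ubiquitin ligase lost in Angelman syndrome (ENSMUSG00000025326.12, chr7:59228750-59311536, plus strand). In WT lines 3, 8 and 19 it was at 82.6, 96.4 and 84.4 CPM, and in the libraries labelled KO lines 3, 13 and 16 at 106, 45.8 and 49.9 CPM. The library labelled KO line 3 was the highest of all 6, and the libraries labelled KO lines 13 and 16 were the lowest. Over all 6 libraries the means were 87.8 ± 7.49 and 67.2 ± 33.7 CPM (SD, n = 3 each), and the log2 fold change was -0.39 (SE 0.28). Without KO line 3 it was -0.87 (SE 0.11). Of its 20626 bp of annotated exon, 5624 bp are shared with genes on the opposite strand, Snhg14 among them, and no source used here gives the strand setting of the counting. Sense and antisense reads over those bases cannot be told apart.

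Snrpn, which encodes the Sm-core protein SmN of neurons, had 0 counts in the 3 WT libraries and 1, 1 and 3 counts in the libraries labelled KO lines 3, 13 and 16. Snurf, the upstream reading frame of the same transcript, had 0 counts in all 6. Every one of the 216 bp of Snurf exon in GENCODE (ENSMUSG00000102627.1, chr7:59995449-60005049, minus strand) is also Snrpn exon, and 737 of 2159 bp of Snrpn exon (ENSMUSG00000102252.5, chr7:59982495-60140219, minus strand) are shared with other genes. The other 1422 bp of Snrpn exon are unshared in GENCODE. In RefSeq, however, Snurf (chr7:59982495-60005199) and Snrpn (chr7:59982495-60450177) have the same lower coordinate. No source used here gives the annotation of the counting or says how reads over shared exons were counted. These rows therefore do not show that the transcript was absent. Snrpb, the paralogue that encodes the near-identical SmB protein, had 83.5, 88.1 and 76.0 CPM in WT and 109, 100 and 130 CPM in the libraries labelled KO. Snrpn made up 0.0492%, 0.0421% and 0.0988% of Snrpn plus Snrpb counts in the libraries labelled KO and 0% in WT. By counting error alone, 0 counts in WT allow a share of up to 0.131%, 0.173% and 0.214%. The shares in the libraries labelled KO lay under these limits. The limits hold only for reads that were counted, and do not bound the level of the transcript if reads over shared exons were dropped.

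**Figure D1:**
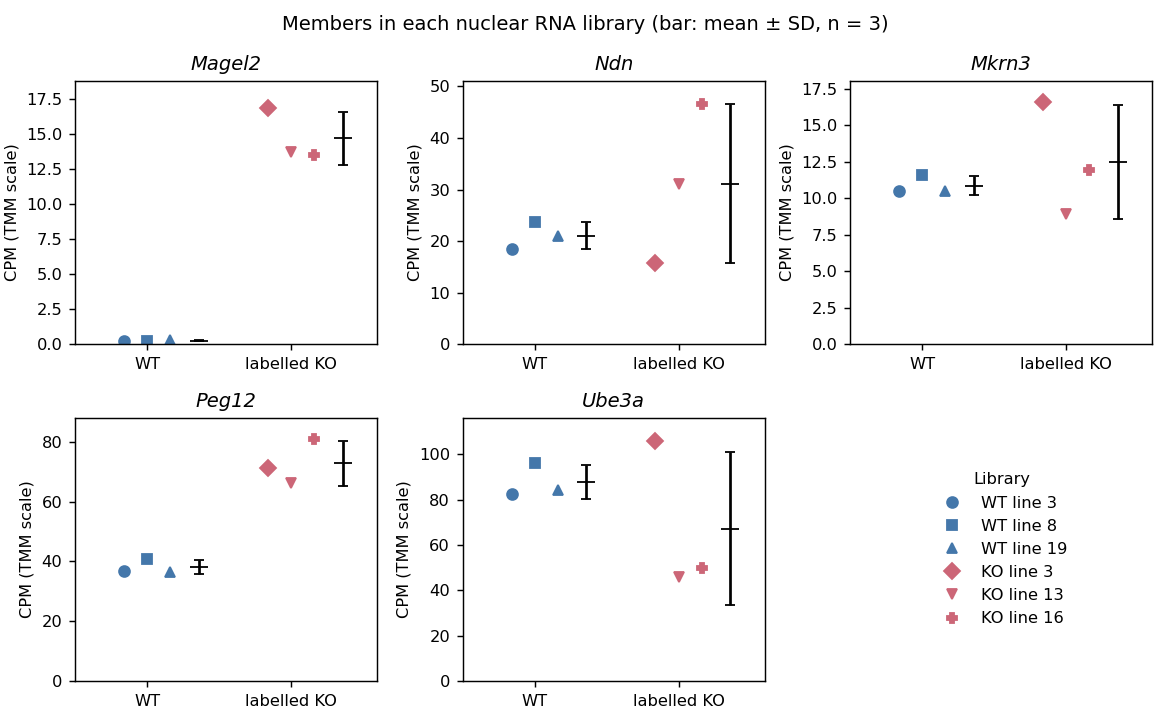
Level of each member above the count filter in CPM (y axis, from 0) in WT libraries and libraries labelled KO (x axis); points are single libraries and bars are mean ± SD, n = 3. The groups separate for Magel2 and Peg12 and overlap for Ndn, Mkrn3 and Ube3a. For Ube3a the library labelled KO line 3 lies away from the other libraries labelled KO, while for Ndn the libraries labelled KO are spread about evenly.

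Of the 5 members above the filter, edgeR called 2 higher, 0 lower and 3 in neither direction, beside 42.3% called among all genes tested, and 2 had groups that did not overlap, beside 54.3%. The member median of the log2 fold change was 0.57, against 0.01 for all genes tested. Nothing is read from these counts, because the members were chosen with this comparison known.

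Per kilobase of exon, Peg12 had the highest member level in WT at 14.5 ± 0.928 CPM per kb, followed by Ndn at 5.7 ± 0.714, Mkrn3 at 4.27 ± 0.232, Ube3a at 4.26 ± 0.363 and Magel2 at 0.0499 ± 0.00771 (SD, n = 3). Mkrn3 and Ube3a did not differ beyond their spread, although Ube3a read 8.91 CPM per kb when its longest transcript was used in place of all its exons. In the libraries labelled KO the order was Peg12 at 27.6 ± 2.79 CPM per kb, Ndn at 8.42 ± 4.18, Mkrn3 at 4.9 ± 1.51, Ube3a at 3.26 ± 1.63 and Magel2 at 3.17 ± 0.414 (SD, n = 3). There Ndn, Mkrn3, Ube3a and Magel2 did not differ from the next in order beyond their spread. The place of Ube3a depends on the length used: with its longest transcript it was at 6.82 CPM per kb, above Mkrn3. In the mean of the libraries labelled KO lines 13 and 16 alone, Ube3a was at 2.32 CPM per kb of all exons, or 4.85 with its longest transcript, and Magel2 at 2.93.

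The members also differed in how much the lines of one genotype varied. In WT, the coefficient of variation over lines was 15.4% for Magel2, 12.5% for Ndn, 5.44% for Mkrn3, 6.42% for Peg12 and 8.53% for Ube3a. In the libraries labelled KO it was 49.7% for Ndn, 30.9% for Mkrn3 and 50.1% for Ube3a, but 13.1% for Magel2 and 10.1% for Peg12. The chi-square per degree of freedom compares the lines with counting error alone. Over the libraries labelled KO it was 353 for Ube3a, 155 for Ndn, 25.2 for Mkrn3, 17.3 for Peg12 and 5.09 for Magel2. Over WT it was 13.7 for Ube3a, 7.73 for Ndn, 3.22 for Peg12, 0.666 for Mkrn3 and 0.107 for Magel2. The Magel2 value in WT rests on 15 counts in all. Between lines 13 and 16 alone, the coefficient of variation was 6.14% for Ube3a, 28.1% for Ndn, 20.4% for Mkrn3, 13.9% for Peg12 and 0.962% for Magel2.

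For some members the library labelled KO line 3 differed from the other libraries labelled KO, and not in one direction. It had 2.22 times the mean Ube3a level of the libraries labelled KO lines 13 and 16 and 1.59 times their Mkrn3 level. For Ndn their mean was 2.48 times its level, but lines 13 and 16 also differed from each other, at 31.1 and 46.6 CPM. For Magel2 and Peg12 the corresponding ratios of KO line 3 to the other lines were 1.24 and 0.968. Among all genes tested, 3.22% were at least 2-fold higher in KO line 3 than in the mean of lines 13 and 16 and 0.761% at least 2-fold lower, a comparison chosen after the values were seen. The Fmr1 level in KO line 3 was 2.17 times that mean, and its part in these differences was not tested. With Xist state as a covariate the log2 fold changes were 6.06 for Magel2, 0.94 for Peg12, 0.25 for Ndn, 0.30 for Mkrn3 and -0.28 for Ube3a.

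**Figure D2:**
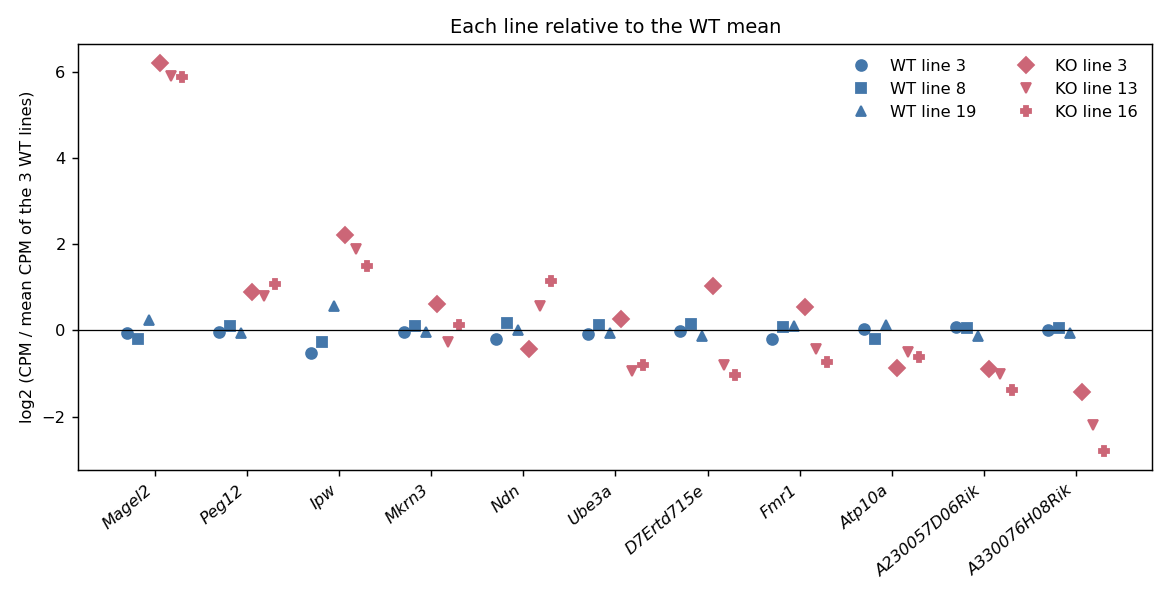
Level of members, other genes of the region and Fmr1 in each library as log2 of the ratio to the mean of the 3 WT lines (y axis). The libraries labelled KO stay together for Magel2 (5.87 to 6.19), while for Ube3a and D7Ertd715e the library labelled KO line 3 lies above 0 and lines 13 and 16 lie below it.

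Other rows of the imprinted region moved in both directions. Of the 5 other rows tested, 1 was higher, 3 lower and 1 in neither direction, with a median log2 fold change of -0.66 against 0.01 for all genes tested. That is 80% called, beside 42.3% of all genes. The counts without KO line 3 were 1 higher and 4 lower, the further one being D7Ertd715e, or 100% called beside 53.7% of all genes. Ipw, a noncoding RNA between Snrpn and Ube3a (RefSeq, chr7:59619158-59678878), was at 0.256, 0.304 and 0.542 CPM in WT lines 3, 8 and 19 and at 1.71, 1.35 and 1.03 CPM in the libraries labelled KO lines 3, 13 and 16. It rose by 1.91 on the log2 scale (SE 0.37, edgeR adjusted p = 0.00347), from 23 counts over the WT libraries. A330076H08Rik, a noncoding host of Mir344 genes between Snrpn and Ndn (chr7:61930137-61982358), moved the other way, from 26.8, 27.8 and 25.5 CPM in WT to 9.83, 5.84 and 3.86 CPM. Its log2 fold change was -2.05 (SE 0.28, edgeR adjusted p = 0.000607), and that of its neighbour A230057D06Rik was -1.08 (SE 0.15, edgeR adjusted p = 0.000703). Atp10a, an aminophospholipid transporter gene beside Ube3a, fell by 0.66 on the log2 scale (SE 0.13, edgeR adjusted p = 0.00425). Within the region, then, genes called higher and genes called lower lay between one another along the chromosome.

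D7Ertd715e is a RefSeq synonym of Snhg14, the long host transcript whose far end is antisense to Ube3a. The interval that the deposited row counted is not given. In RefSeq, Snhg14 spans chr7:59272737-60450177, which holds the interval of Ipw, so the rows D7Ertd715e and Ipw may not be separate. D7Ertd715e was at 52.6, 58.8 and 49.0 CPM in WT lines 3, 8 and 19 and at 109, 30.7 and 26.0 CPM in the libraries labelled KO lines 3, 13 and 16. As for Ube3a, the library labelled KO line 3 was the highest of all 6 and lines 13 and 16 were the lowest. The log2 fold change was 0.04 (SE 0.47, edgeR adjusted p = 0.952), and without KO line 3 it was -0.91 (SE 0.12, edgeR adjusted p = 3.7e-05). This row and Ube3a were thus highest in the same library and lowest in the same pair of libraries. Many other genes were closer to Ube3a than this row was, as given below. The rows Snord116, Snord64, Mir344 and B230209E15Rik had too few counts to be tested.

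**Figure D3:**
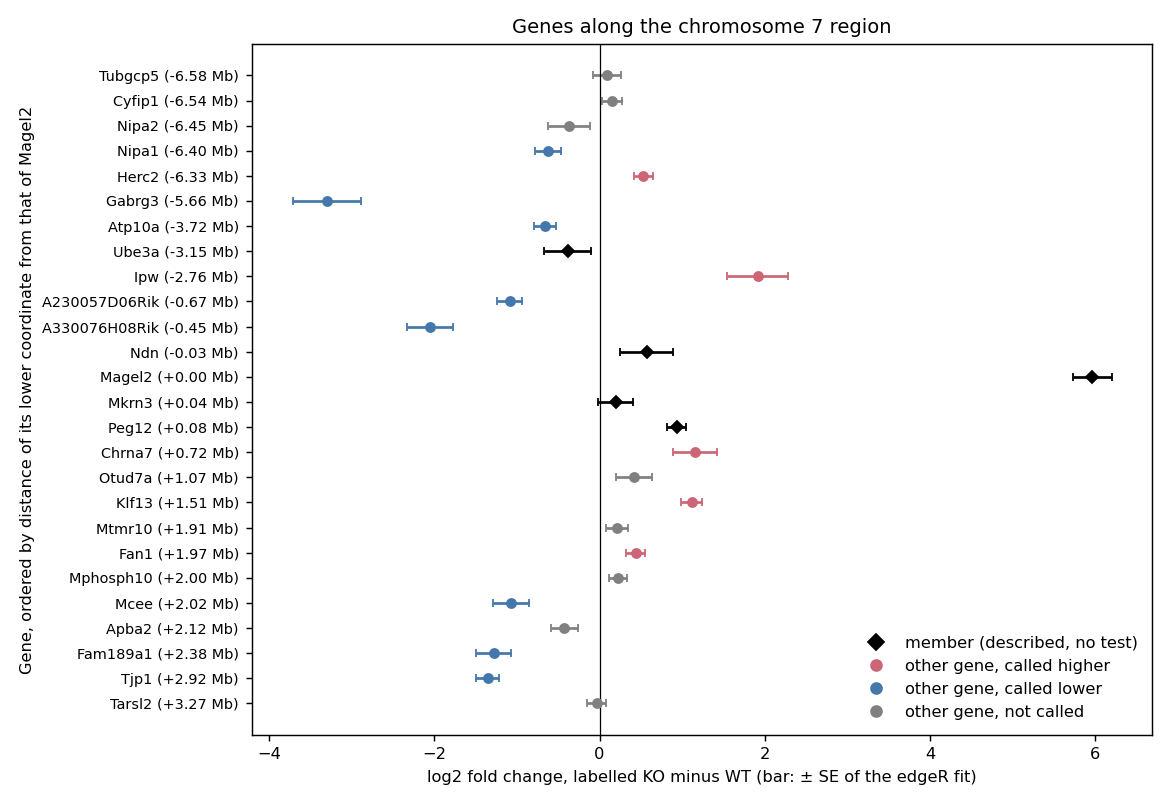
Log2 fold change of libraries labelled KO against WT (x axis, bars ± SE of the edgeR fit) for genes reported here, in order along chromosome 7, with the distance of each from Magel2 in Mb (y axis). Magel2 at 5.96 stands alone, and both higher and lower genes lie on each side of it.

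Genes that flank the imprinted interval were described to see whether the difference extended outwards. Of 19 tested, 4 were higher, 6 lower and 9 in neither direction, or 21.1% higher and 31.6% lower beside 21.8% and 20.4% of all genes, with a median log2 fold change of -0.03. Leaving out KO line 3 gave 4 higher and 8 lower, or 63.2% called beside 53.7% of all genes. Gabrg3, a GABA-A receptor subunit gene on the Ube3a side, fell by 3.30 on the log2 scale (SE 0.41, edgeR adjusted p = 0.000408). Herc2, a HECT ligase gene further out, rose by 0.53 (SE 0.11, edgeR adjusted p = 0.00558). Beyond Peg12, Klf13, a Krüppel-like transcription factor gene 1.51 Mb from Magel2, rose from 28.4 ± 1.98 to 61.6 ± 8.33 CPM (SD, n = 3 each; edgeR adjusted p = 0.000251). Tjp1, which encodes the tight junction protein ZO-1 and lies 2.92 Mb from Magel2, fell from 879 ± 147 to 344 ± 27.8 CPM (SD, n = 3 each; edgeR adjusted p = 0.000159). The largest upward difference among the flanking genes tested was that of Chrna7, a nicotinic receptor subunit gene, at 1.16 on the log2 scale (SE 0.27, edgeR adjusted p = 0.00805).

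Partners of the member proteins were followed as lists, each to be read beside the 21.8% of all genes called higher and the 20.4% called lower. For MAGEL2, the list of TRIM27, USP7, WASH and retromer genes had 2 of 17 higher and 4 lower, with a median log2 fold change of -0.05, and 2 higher and 5 lower without KO line 3. The list holds AI314180, which RefSeq gives as Ecpas; leaving it out, a choice made after the values were seen, gave 2 of 16 higher and 4 lower. Trim27 rose from 58.1 ± 1.46 to 88.9 ± 2.5 CPM (SD, n = 3 each; edgeR adjusted p = 0.00119) and Usp7 from 256 ± 10.3 to 350 ± 20.6 CPM (edgeR adjusted p = 0.0067). The retromer sorting genes Snx6 and Vps29 fell by 0.75 (SE 0.15, edgeR adjusted p = 0.00361) and 0.48 (SE 0.12, edgeR adjusted p = 0.011) on the log2 scale. The Vps29 call was lost without WT line 3 and without KO line 13. Trim27 and Usp7, whose products form a complex with MAGEL2, were the 2 that rose, and the 4 that fell belonged to the WASH and retromer machinery. The list was called in 35.3%, beside 42.3% of all genes. Its 11 genes called in neither direction held further WASH and retromer genes, so the 4 do not describe that machinery as a whole. The other MAGE genes tested, 5 in number, gave 0 higher and 2 lower, or 1 higher (Maged1) and 2 lower without KO line 3. The lower ones were Maged2 at -0.79 (SE 0.12, edgeR adjusted p = 0.000877) and Mageh1 at -0.77 (SE 0.12, edgeR adjusted p = 0.00153). Another 6 MAGE rows had 0 counts in every library.

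Among necdin partners, 5 of 13 were higher and 2 lower, with a median of 0.22; without KO line 3, 5 of 14 were higher and 4 lower, with a median of 0.09. Arnt2, a bHLH-PAS transcription factor, rose by 1.17 (SE 0.13, edgeR adjusted p = 0.000235) on the log2 scale and E2f1, the cell-cycle factor that necdin binds, by 0.59 (SE 0.13, edgeR adjusted p = 0.00599). In the FRAT and GSK3 list around Peg12, 4 of 14 were higher and 1 lower (median 0.24), and without KO line 3, 6 were higher and 1 lower. The FRAT paralogues of Peg12 moved apart: Frat1 was called higher, with 1.0 ± 0.223 CPM in WT and 1.78 ± 0.123 CPM in the other group (SD, n = 3 each; edgeR adjusted p = 0.0249), and Frat2 lower, at -0.58 on the log2 scale (SE 0.18, edgeR adjusted p = 0.03). The Frat1 call was lost under 5 of 15 alternatives. Dvl3, a Dishevelled protein of the same pathway, rose by 0.82 (SE 0.14, edgeR adjusted p = 0.00182). The makorin paralogues of Mkrn3, Mkrn1 and Mkrn2, were called in neither direction, with 15.3 ± 1.88 and 14.2 ± 0.68 CPM in WT (SD, n = 3).

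The list around UBE3A, its partners and related HECT ligases, had 8 of 19 higher and 0 lower (median 0.24, against 0.01 for all genes tested). That is 42.1% called, beside 42.3% of all genes. Leaving out KO line 3 gave 10 higher and 2 lower, the latter being Ube2d2 at -0.62 (SE 0.10, edgeR adjusted p = 0.000239) and Ube2d3 at -1.19 (SE 0.12, edgeR adjusted p = 2.88e-06), genes of ubiquitin-conjugating enzymes. Arc, an activity-regulated synaptic gene, rose from 33.6 ± 13.9 to 117 ± 23.9 CPM (SD, n = 3 each; edgeR adjusted p = 0.00108), and Adrm1, the proteasome's ubiquitin receptor, by 0.76 on the log2 scale (SE 0.12, edgeR adjusted p = 0.00129). With WT line 19 and KO line 3 both left out, Arc was no longer called (edgeR adjusted p = 0.118). The Sm and Sm-like list, the family of SmN, had 6 of 16 higher and 0 lower (median 0.34), and 7 higher and 1 lower without KO line 3. Lsm11, of the U7 particle that processes histone messages, rose by 0.48 (SE 0.10, edgeR adjusted p = 0.00596) and Snrpb by 0.45 (SE 0.12, edgeR adjusted p = 0.0175), the latter lost under 2 alternatives.

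Genes that maintain imprints or act on the imprinting centre were higher in 6 of 23 cases and lower in 0, with a median of 0.26. The share higher, 26.1%, stands beside 21.8% of all genes. With 0 lower, 26.1% is also the share called in either direction, under the 42.3% of all genes. When KO line 3 was left out, 10 were higher and 0 lower, with a median of 0.08. That is 43.5% higher beside 25.8% of all genes, and 43.5% called beside 53.7%. With WT line 19 left out as well, 10 were higher and 1, Atrx, lower, or 47.8% called beside 54.2% of all genes. Zfp57, a zinc finger protein that keeps methylation at imprinted control regions, rose from 33.7 ± 2.47 to 105 ± 10.3 CPM (SD, n = 3 each; log2 fold change 1.64, SE 0.12, edgeR adjusted p = 2.95e-05). Dnmt1, the maintenance DNA methyltransferase, rose from 435 ± 35.9 to 780 ± 60.5 CPM (SD, n = 3 each; edgeR adjusted p = 0.000577). Its recruiter Uhrf1 and Trim28, the corepressor bound by ZFP57, each rose by 0.65 on the log2 scale (SE 0.10, edgeR adjusted p = 0.00135, and SE 0.12, edgeR adjusted p = 0.00235). Of 34 imprinted genes tested elsewhere in the genome, 11 were higher and 5 lower (median 0.08), and 12 higher and 7 lower without KO line 3, with Mest at 2.30 (SE 0.15, edgeR adjusted p = 2.44e-05) and Zim1 at -1.88 (SE 0.12, edgeR adjusted p = 2.27e-05) on the log2 scale.

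**Figure D4:**
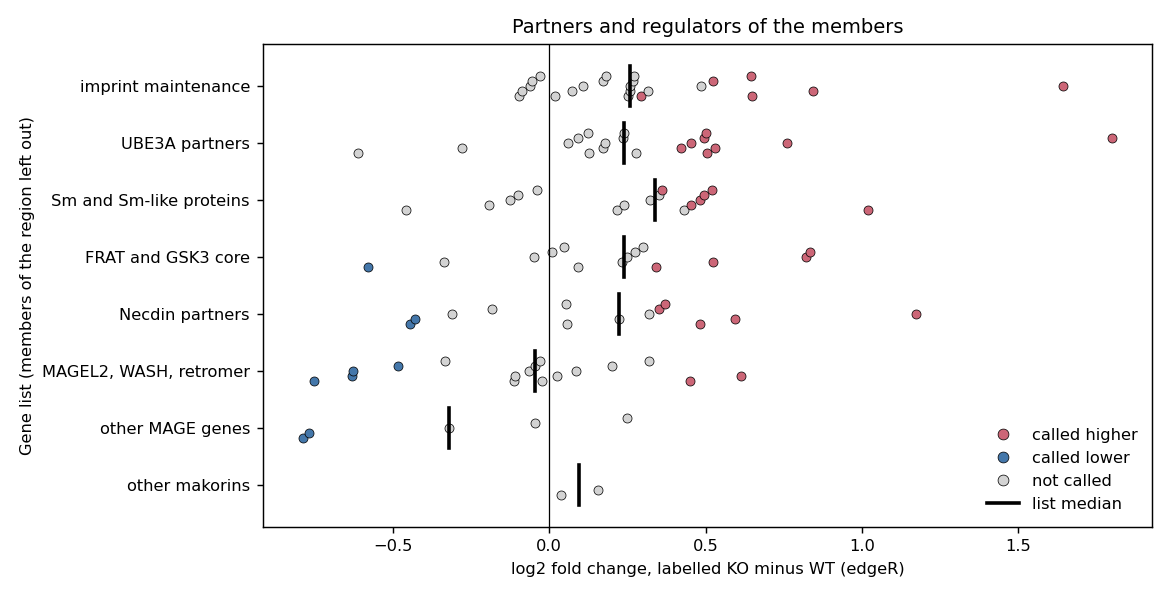
Log2 fold change of libraries labelled KO against WT (x axis) for each tested gene of the lists around the members (y axis), coloured by edgeR call, with the list median as a bar. Over all 6 libraries the lists around UBE3A, Sm proteins and imprint maintenance hold 0 lower calls and the other MAGE genes 0 higher ones, which is not so for UBE3A, Sm proteins and MAGE genes without KO line 3.

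Genes most like a member were found by the root-mean-square (RMS) difference of their centred log2 CPM over the 6 libraries. The nearest to Magel2 of 13924 genes were Igf2bp1, a fetal RNA-binding protein gene (RMS 0.451), Gpr17, a receptor of oligodendrocyte precursors, and Cbln1, a secreted synapse organiser (RMS 0.766 each), while the median gene was at 2.76. Gpr17 and Cbln1 held only 4 and 12 counts over the WT libraries, so their likeness rests on WT levels near the detection limit. Igf2bp1 had 3.15, 3.29 and 2.06 CPM in WT lines 3, 8 and 19. In the libraries labelled KO it had 85.2, 92.0 and 76.4 CPM, with KO line 3 beside the others. Because Igf2bp1 was picked for its likeness to Magel2 over these same libraries, that place of KO line 3 is not a separate observation. For Ube3a the nearest were Rod1 (RMS 0.0481), Dr1 (0.0502) and Zbtb33 (0.0589), and 654 genes lay within 0.25. Fmr1 and D7Ertd715e, looked up after the values were seen, were at 0.203 and 0.309 from Ube3a, at ranks 344 and 1338. For Ndn, 10 genes lay within 0.25, the nearest being Gm7904 (0.168), Alyref2 (0.185) and Dusp5 (0.212). No gene lay within 0.25 of Magel2.

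Markers of other cell types were measured in the same libraries. Their counts are to be read beside the 21.8% of all genes called higher and the 20.4% called lower. Without KO line 3 these shares of all genes were 25.8% and 27.8%. Oligodendrocyte markers were higher in 4 of 7 tested and lower in 0, with a summed level of 685 to 767 CPM in WT and 1110 to 1310 CPM in the libraries labelled KO, and Mbp and Mag at 0 counts in WT. Astrocyte markers were lower in 7 of 10 and higher in 0, from 1590 to 2010 CPM down to 1010 to 1080 CPM. Neuron markers were higher in 5 of 12 and lower in 0, from 182 to 224 CPM up to 256 to 315 CPM. Hypothalamic neuron markers, chosen because Magel2 and Ndn are known in the hypothalamus, had 2 tested and 0 called, with a summed level of 6.4 to 7.57 CPM in WT and 5.46 to 8.02 CPM in the libraries labelled KO and with Npy and Otp at 0 counts in all 6 libraries. Mesenchymal markers were higher in 3 of 5 tested and lower in 1, with a summed level of 177 to 195 CPM in WT and 65.9 to 122 CPM in the libraries labelled KO, most of it Prrx1, and endothelial markers were higher in 1 of 5 and lower in 2, at 12.5 to 17.7 CPM and 11.6 to 14.9 CPM. Microglia and blood markers had 0 tested and summed to 0.219 to 0.542 CPM in WT and 0.3 to 0.423 CPM in the libraries labelled KO. Called markers without KO line 3 numbered 4 higher and 1 lower for oligodendrocytes, 0 and 6 for astrocytes, and 5 and 1 for neurons. The part of these cell types in the member values was not tested.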

How the data were processed

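The authors deposited raw, whole-number counts per gene symbol for 6 nuclear RNA libraries, 1 file per library, with no normalization. The submitters' processing notes name cutadapt 1.14, STAR, HTSeq 0.7.2, DESeq2 and the build mm10. What each tool did, the annotation and the strand setting were not given in the sources used here. The counts were tested in R 4.3.3 with edgeR 4.0.16: filterByExpr, TMM scaling and a robust quasi-likelihood fit of KO against WT over all 6 libraries, two-sided, with Benjamini-Hochberg adjustment over 13925 genes and a threshold of 0.05. The SE of a log2 fold change came from its F statistic. P-values measure the spread between these lines. Intervals and limits from 0 counts cover counting error only.

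Positions and exon lengths are from GENCODE M21 and upstream sequences from RefSeq, both on GRCm38, the assembly of mm10. Likeness used log2 CPM with a prior count of 2. Genes eligible to be named were all members, Fmr1, all tested genes of the region and its flanks, up to 4 called genes per other list by smallest p, up to 2 not called, and the 3 genes most like Magel2, Ndn and Ube3a; Frat2, Maged1, Ube2d2, Ube2d3, Atrx, AI314180 and markers given at 0 counts were named after their values were seen. Some genes eligible under this rule are not reported here. The members and the lists were chosen with earlier results of these data known. Code was tested on simulated counts. Alternatives were other size factors, other count filters, limma 3.58.1 voom, the DESeq2 1.42.0 Wald test, an Xist covariate and leaving out libraries. List counts without KO line 3, and a MAGEL2 list without AI314180, were added after the values were seen.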

Additional observations from a re-analysis of the deposited data

How the results depend on the processing

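No paired analysis was possible because the groups share only the line number 3. Leaving out each library in turn, the log2 fold change ran from 5.86 to 6.07 for Magel2, 0.86 to 1.0 for Peg12, 0.17 to 0.89 for Ndn, -0.06 to 0.39 for Mkrn3 and -0.87 to -0.17 for Ube3a. The number of members past the edgeR threshold, a description and not a test, ran from 2 to 4, with 4 only without KO line 3. Calls among all genes also rose there, from 42.3% over all 6 libraries to 53.7%. With WT line 19 and KO line 3 both left out, 4 members were again past the threshold, beside 54.2% of all genes. The log2 fold change was then -0.90 for Ube3a and -0.08 for Mkrn3. In that setting the WT libraries held 422810 and 363810 Xist counts and the libraries labelled KO 79 and 39. Label and Xist state therefore cannot be told apart there. D7Ertd715e ran from -0.91 to 0.38 when 1 library was left out, -0.91 being the value without KO line 3, and was -0.97 with both libraries left out. Genes called higher numbered 3040 in all and from 1994 (without WT line 3) to 3666 (without KO line 3). Under 8 other settings of scaling, filter, test and covariate, the members ranged from 5.85 to 6.06 (Magel2), 0.92 to 0.94 (Peg12), 0.25 to 0.58 (Ndn), 0.14 to 0.30 (Mkrn3) and -0.50 to -0.28 (Ube3a), with 2 members past the threshold in each. Per kb of its longest transcript in place of all exons, Ube3a was at 8.91 CPM in WT and 6.82 CPM in the libraries labelled KO. The cause of these differences was not tested. Depth limits Magel2 in WT, with 4 to 6 counts per library, and Snrpn and Snurf, which the counts cannot show as absent.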
